A study of Mus musculus with 4 samples.

Results

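Aqp4 encodes aquaporin-4, the main water channel of the brain, which sits in the membrane of astrocytes and is densest on their endfeet around blood vessels. In stop codon readthrough a ribosome decodes the stop codon as an amino acid and goes on to the next stop codon in frame, which adds a tail to the protein. The tailed form of aquaporin-4 is known from rodent and human tissue, where it is found at perivascular endfeet, and its tail bears on how the channel is anchored there. A footprint is the short RNA stretch that a ribosome shields from nuclease, so footprints past a stop codon can show such ribosomes. Aqp4 was read from the lines of 1 Ensembl transcript, ENSMUST00000079081, which is 1 of 23175 transcripts that have a count somewhere in the libraries. The tables used here do not pair transcript IDs with genes, so the pairing of this ID with Aqp4 was taken as given.

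Whole brains of C57BL/6J mice were taken at postnatal day 21. Astrocyte samples came from mice with the transgene Aldh1l1::eGFP-RpL10a, in which Aldh1l1 sequences drive a GFP-tagged ribosomal protein in astrocytes, and neuron samples from mice with Snap25::eGFP-RpL10a, in which Snap25 sequences drive it in neurons. Both groups therefore carried the tag, the labels name no treatment, and each of the 2 libraries per group pooled 2 brains. Ribosomes with the tag were pulled down through GFP, and RNase I then trimmed the RNA they held. Tag-negative littermates are named in the labels, and no library of them was analysed here. The sex of the mice is not given in the sources used here.

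Each deposited value is a count of fragments for 1 of 4 regions of a transcript, which the files label a to d. The sources used here do not define the letters. The order read here is the leader before the coding sequence for a, the coding sequence for b, the stretch from the stop codon to the next stop in frame for c and the rest of the 3′ end for d, which is an assumption, so results are given by letter. Region lengths are not known either, so counts of different regions are compared without a correction for length. The libraries held 7210269 to 12833187 counts, and region b took 91.1% to 92.6% of them. The markers of astrocytes and neurons could not be looked up by name, so the labels were not checked against marker genes.

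Aqp4 carried about 4 times as many footprints in astrocyte as in neuron samples. Its total over the 4 regions was 386 and 411 CPM (the count divided by the library's total and scaled to 1000000) in astrocyte libraries 1 and 2. In neuron libraries 1 and 2 it was 105 and 83.0 CPM. Both astrocyte libraries lay above both neuron libraries, with means of 398 ± 18.0 CPM and 94.2 ± 15.9 CPM, astrocyte first (SD, n = 2 each). The fitted difference, neuron minus astrocyte, was -2.20 on the log2 scale (SE 0.178, edgeR quasi-likelihood test, adjusted p = 0.000396 over 18819 transcripts). This is a 4.59-fold higher level in astrocyte samples, with a 95% interval of 3.46-fold to 6.11-fold. Calls with a higher level in astrocyte samples made up 12.9% of the transcripts tested, and 25.6% of them had both astrocyte libraries above both neuron libraries. Scaling by library totals alone moved the median log2 difference of all transcripts from 0.03 to 0.15, and relative to that median Aqp4 stood at -2.23 under both scalings. Each library pools the pulled-down ribosomes of many cells, so fewer cells with Aqp4 and fewer Aqp4 footprints per cell cannot be told apart.

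**Figure D1:**
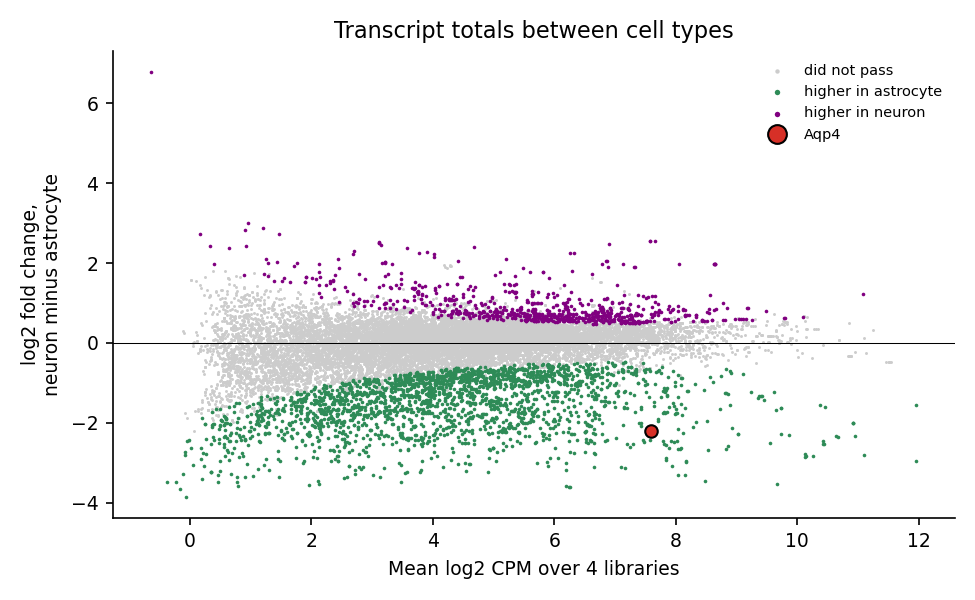
Each point is a transcript, placed by its mean log2 CPM over the 4 libraries (x) and its fitted log2 fold change, neuron minus astrocyte (y), with the 2422 transcripts called higher in astrocyte samples in green and the 797 called higher in neuron samples in purple. Aqp4, the large red point at a log2 fold change of -2.20, lies among the abundant transcripts below 0.

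Aqp4 stood high among the transcripts of astrocyte libraries. It ranked 279 of 21866 transcripts with a count in astrocyte library 1 and 250 of 21785 in astrocyte library 2. In the neuron libraries it ranked 2144 of 21879 and 2907 of 22150. Its neuron level was 23.7% of its astrocyte level, while the median over the 2422 transcripts called higher in astrocyte samples was 40.9%. By the fitted change it ranked 397 of those 2422, where rank 1 is the largest change toward astrocytes, and the median log2 change of the 2422 was -1.43. Aqp4 was thus present in both neuron libraries, at 760 and 1065 counts. From which cells these fragments came was not tested.

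The region b counts, read as the coding sequence, held nearly all Aqp4 footprints. They numbered 2710 and 3171 in astrocyte libraries 1 and 2, or 372 and 398 CPM. In neuron libraries 1 and 2 they numbered 736 and 1024, or 102 and 79.8 CPM. Region b took 96.2% to 96.8% of the transcript's counts in every library.

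Region c, the stretch read as the readthrough tail, had footprints of Aqp4 in all 4 libraries. Astrocyte library 1 held 33 counts, astrocyte library 2 held 57, neuron library 1 held 16 and neuron library 2 held 22. In CPM these were 4.52 and 7.15 in the astrocyte and 2.22 and 1.71 in the neuron libraries. Both astrocyte libraries thus lay higher, as they did in region b. The share of all transcripts with this order in region c was not counted, so the order is not read as a trait of region c. The astrocyte mean was 5.84 ± 1.86 CPM and the neuron mean 1.97 ± 0.357 CPM (SD, n = 2 each), a 2.97-fold difference of the means, against 4.23-fold for region b. The exact two-sided permutation test gave p = 0.333 for region c, the smallest that 2 against 2 libraries can give.

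Region d, the rest of the 3′ end, was nearly empty. It held 4 counts in each astrocyte library and 0 in each neuron library. In CPM that was 0.548 and 0.502 in the astrocyte libraries. A count of 0 allows up to 3 counts, that is 0.416 CPM in neuron library 1 and 0.234 CPM in neuron library 2. Region c exceeded region d in every library, which held for 345 of the 7382 transcripts whose region b counts summed to 1000 or more over the libraries (4.67%). Of the 7382, 3122 had no region c count at all. By summed counts 1952 of the 7382 (26.4%) had more in region c than in region d, and so had 112 of the 155 with 50 or more region c counts. Over all libraries region c held 128 counts and region d 8, a ratio of 16.0 (95% Wilson interval 7.95 to 32.2, for counting error only). The ratio was 11.3 in the astrocyte libraries (90 against 8 counts, 95% Wilson interval 5.54 to 22.8). In the neuron libraries 38 counts stood against 0, and a count of 0 over both libraries allows up to 3. The ratio at that limit is 12.7, which leaves out the counting error of the 38, so the groups cannot be ordered by it.

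Region a, read as the leader, was sparse for a transcript this abundant. It held 65 and 43 counts in astrocyte libraries 1 and 2, or 8.91 and 5.40 CPM. In neuron libraries 1 and 2 it held 8 and 19 counts, or 1.11 and 1.48 CPM. All 3 of the other regions together thus gave under 4% of the Aqp4 counts in any library.

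**Figure D2:**
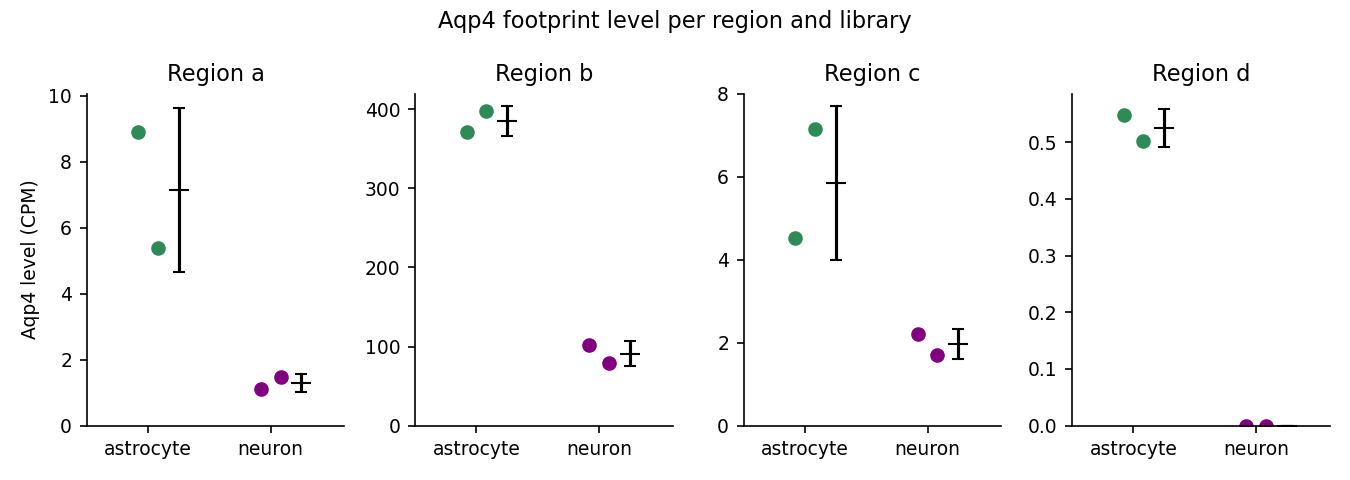
Level of Aqp4 in CPM (y, from 0, with a scale of its own in each panel) in regions a to d, by cell type (x), with 1 point per library and the mean ± SD of the 2 libraries in black. Region b lies at 372 to 398 CPM in astrocyte and 79.8 to 102 CPM in neuron libraries. Region c lies at 4.52 to 7.15 CPM in astrocyte and 1.71 to 2.22 CPM in neuron libraries, and region d is at 0 in both neuron libraries.

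Relative to region b, region c of Aqp4 stood between 1% and 2.5% in every library. It was 1.22% of region b in astrocyte library 1 (95% Wilson interval 0.865 to 1.71, from the share of c among c and b counts, for counting error only). In astrocyte library 2 it was 1.80% (1.38 to 2.33). The neuron libraries gave 2.17% (1.33 to 3.55) and 2.15% (1.41 to 3.27). Both neuron values lay above both astrocyte values, while all 4 intervals shared the stretch from 1.41% to 1.71%. The astrocyte mean was 1.51% ± 0.410 and the neuron mean 2.16% ± 0.0180 (SD, n = 2 each).

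The share of ribosomes in region c was not shown to differ between the cell types. In a model that fits both regions and lets every library have its own level, the log2 ratio of c to b was higher in neuron samples by 0.51 (SE 0.295, edgeR quasi-likelihood test, adjusted p = 0.428 over 290 transcripts). The 95% interval of this difference ran from -0.20 to 1.22, which spans a 0.873-fold to a 2.33-fold ratio. edgeR called 0 of the 290 transcripts (0%), with 40 at an unadjusted p under 0.05, and DESeq2 also called 0, with 16 at that level. Of the 290, 28.3% had both neuron libraries above both astrocyte libraries in this ratio, as Aqp4 had. The difference was 0.83 without astrocyte library 2 and 0.27 without astrocyte library 1, and neither passed the test. The exact permutation test of the percentages gave p = 0.333, the floor of this design.

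Region d relative to region b was 0.148% (0.0574 to 0.380) in astrocyte library 1 and 0.126% (0.0490 to 0.325) in astrocyte library 2. In the neuron libraries it was 0, which allows up to 0.408% and 0.293% of region b. These limits lie above the astrocyte values, so a difference was not detectable at this depth. Aqp4 had too few region d counts for the test of the ratio of d to b, which covered 544 transcripts, of which 1 was called (0.184%).

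Region a relative to region b was 2.40% (1.88 to 3.07) and 1.36% (1.00 to 1.83) in astrocyte libraries 1 and 2. In neuron libraries 1 and 2 it was 1.09% (0.549 to 2.15) and 1.86% (1.18 to 2.91). The groups overlapped. The fitted log2 difference of the ratio, neuron minus astrocyte, was -0.26 (SE 0.367, edgeR quasi-likelihood test, adjusted p = 0.830 over 8778 transcripts), with a 95% interval from -0.996 to 0.47. In this comparison 1.08% of the transcripts were called. The sign of the Aqp4 value turned without astrocyte library 1 (0.17) and without neuron library 1 (0.02).

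**Figure D3:**
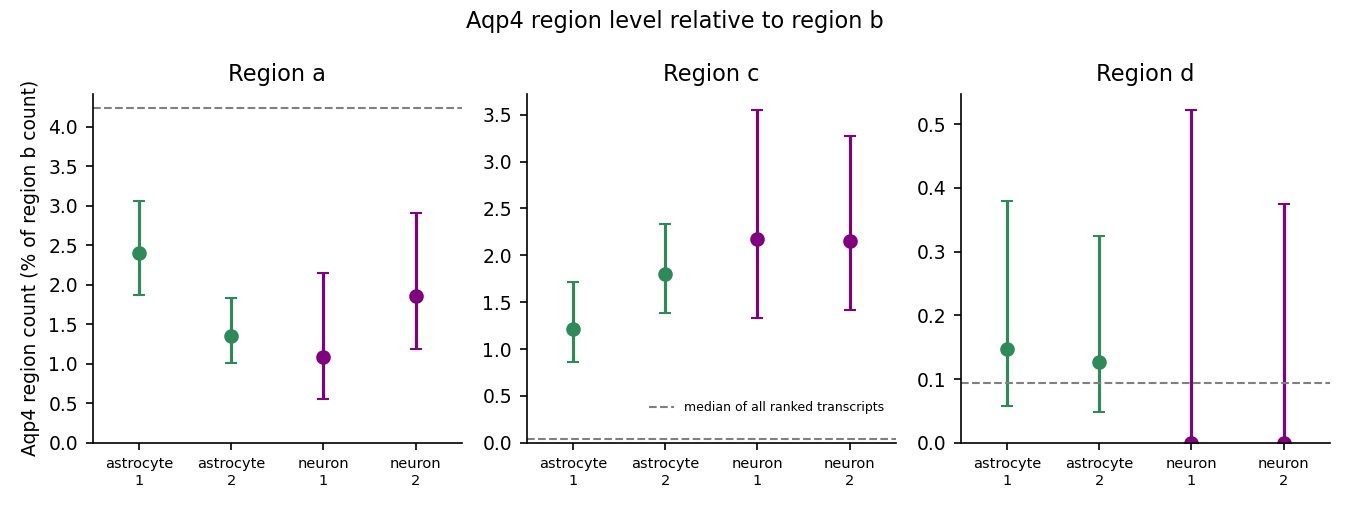
Count of Aqp4 in regions a, c and d as a percentage of its region b count (y, from 0, with a scale of its own in each panel) in each library (x), with 95% Wilson intervals as bars and the median over the same 7382 transcripts as a dashed line. All 4 libraries lie far above the median of 0.0386% in region c and below the median of 4.24% in region a, and in region d the astrocyte libraries lie near the median of 0.0944%.

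Few transcripts of like abundance had a region c as high as that of Aqp4. Summed over the libraries, region c was 1.68% of region b (1.41 to 1.99), which ranked 154 of the 7382. The bounds of this interval would place it at ranks 122 and 181. The interval covers counting error only and not the spread between libraries, which ran from 1.22% to 2.17%. The median of the 7382 was 0.0386% and the 90th percentile 0.332%, while 3122 transcripts had no region c count. Aqp4 thus stood 43.4-fold above the median and 2.09% of transcripts were at or above its level. The fold moved with the cutoff, to 114 with at least 500 region b counts and 36.4 with at least 2000. From the astrocyte libraries alone it ranked 58 of 3044, and from the neuron libraries alone 59 of 4611. Within each library, among those with 500 or more region b counts there, it ranked 61 of 2942 in astrocyte library 1, 66 of 3163 in astrocyte library 2, 44 of 3110 in neuron library 1 and 67 of 5817 in neuron library 2. In each library, then, Aqp4 lay among the upper 2.1% of those ranked.

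Most transcripts above Aqp4 in this order were less abundant than it, as were most of all 7382, where it ranked 635 by region b counts. Of the 153 with a higher region c level, 12 had at least the 7641 region b counts of Aqp4, and 49 had at least its 128 region c counts. Their median region b count was 1710. Among the 1639 transcripts with region b within 2-fold of that of Aqp4, it ranked 31, against a median level of 0.0476%. Among the 885 ranked transcripts called higher in astrocyte samples it ranked 23, against a median of 0.0461%. Such transcripts were 22 of the 153 above Aqp4 (14.4%) and 885 of all 7382 (11.99%). By region c counts alone Aqp4 ranked 82 of the 7888 transcripts with any, against 635 of 22218 by region b counts.

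1 transcript had region b counts within 5% of those of Aqp4 in every library, and it was singled out after its values were seen. ENSMUST00000056136 held 2629 and 3058 region b counts in astrocyte libraries 1 and 2 and 722 and 1072 in neuron libraries 1 and 2. Its region c counts in the same order were 0, 5, 0 and 3, where Aqp4 had 33, 57, 16 and 22. Its region d held 8 counts in all, the same number as that of Aqp4. At a like depth of the coding region and of region d, region c thus differed between these transcripts, at 0.107% against 1.68% of region b. Region a went the other way, at 9.24% in ENSMUST00000056136 and 1.77% in Aqp4.

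**Figure D4:**
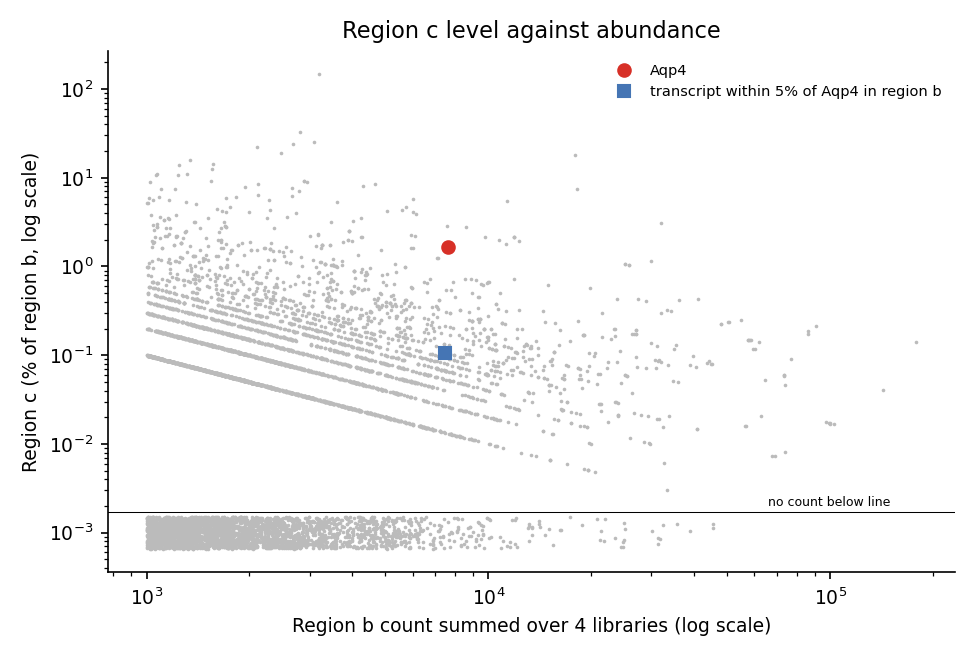
Each grey point is 1 of the 7382 transcripts, placed by its region b count summed over the 4 libraries (x, log scale) and its region c count as a percentage of region b (y, log scale), and transcripts without a region c count are spread at random below the line. Aqp4 (red) lies at 1.68%, above nearly all transcripts of like abundance, and ENSMUST00000056136 (blue square), with nearly the same region b counts, lies at 0.107%.

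Region d of Aqp4 was at about the level of the median transcript, while its region c was far above the median. The median ratio of c to d of the 155 transcripts with 50 or more region c counts was 3.98, with an empty region d counted as 1, and Aqp4 ranked 40 by this ratio. Of the 153 transcripts above it in region c level, 77 had region d above 1% of region b. The median region d level of the 153 was 1.03%, while the 90th percentile over all 7382 was 0.581%. In 27 of the 153 region d was as low as in Aqp4 (0.105%) or lower. In 40 of the 153 region c exceeded region d by as much or more, a trait not counted over all 7382. Region d of Aqp4 itself ranked 3476 of the 7382, near the median of 0.0944%. Over all 7382, 47.1% had a region d level at or above that of Aqp4. In 138 of the 7382 transcripts region c exceeded 1% of region b in every library, Aqp4 among them. Of these 138, 24 had a summed region d level no higher than that of Aqp4.

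The neighbours of Aqp4 in region c rank differed in region d. Directly above it, ENSMUST00000101618 had 23 region c and 67 region d counts, and ENSMUST00000167459 had 53 and 68. Directly below it, ENSMUST00000159771 had 42 region c counts and 1 region d count, and ENSMUST00000087897 had 17 and 24. Their region c levels were 1.64% to 1.72% of region b, a closeness to Aqp4 that follows from picking them by rank in this level. Of the neighbours ENSMUST00000159771 alone had more counts in region c than in region d. Its region c level ran from 0.390% to 3.78% over the libraries on 42 counts, and that of Aqp4 from 1.22% to 2.17% on 128. ENSMUST00000167459, with 53 counts, ran from 1.42% to 2.22%. The remaining neighbours, with 23 and 17 counts, spread more widely than Aqp4. The counting error of these ranges was not tested.

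**Figure D5:**
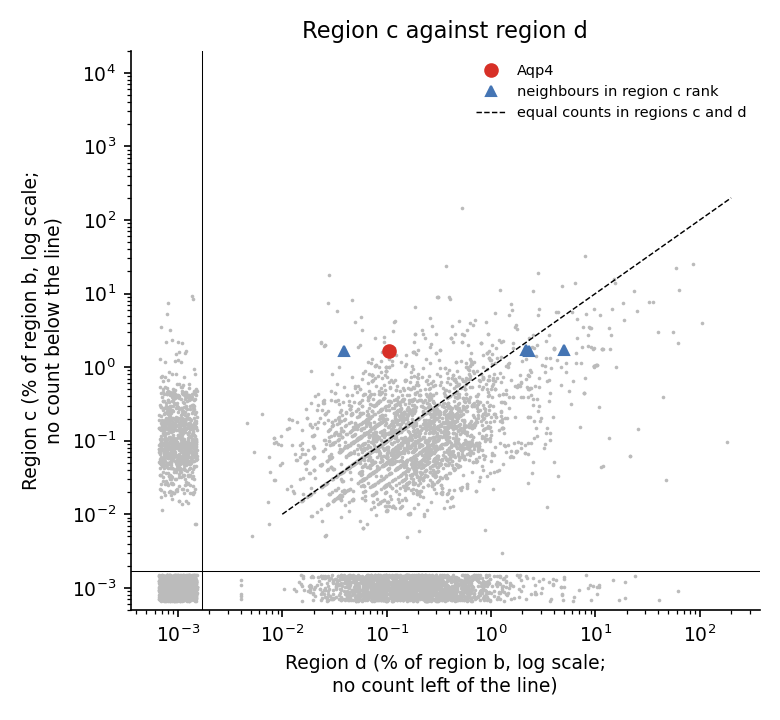
Region c (y) against region d (x), each as a percentage of region b on a log scale, for the 7382 transcripts (grey), with transcripts without a count spread at random below or left of the lines. Aqp4 (red, 1.68% and 0.105%) lies well above the dashed line of equal counts, as does 1 of its 4 neighbours in region c rank (blue), while the other 3 lie below it.

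Region a of Aqp4 was low beside that of other transcripts. Summed over the libraries it was 1.77% of region b (1.49 to 2.09), rank 5399 of 7382, where the median was 4.24%. Among the 885 ranked transcripts called higher in astrocyte samples the median was 6.14%, and Aqp4 ranked 744. The region c level of Aqp4 was thus close to its own region a level (128 against 135 counts), while the medians over the 7382 were 0.0386% for region c and 4.24% for region a.

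The 2 transcripts nearest to Aqp4 in their pattern over the libraries had a lower region c level than Aqp4. This is the common case, since 2.09% of the 7382 ranked transcripts were at or above its level. Nearness was measured as the Euclidean distance of log2 CPM, centred on each transcript's mean over the 4 libraries, among 13354 transcripts that averaged 10 CPM or more. ENSMUST00000101426 was the nearest (distance 0.0496). It stood at 48.0 and 50.3 CPM in astrocyte libraries 1 and 2 and 13.3 and 10.1 CPM in neuron libraries 1 and 2. Its region c held 0 counts against 883 in region b, which is under the 1000 needed for the ranking. ENSMUST00000098910 came next (distance 0.0670), with a region c level of 0.250% from 9 counts. No transcript shared the region b counts of Aqp4 in all 4 libraries and none shared its region c counts, so no other entry repeats its values.

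The study's published account, as known from the literature, names Aqp4 among transcripts with readthrough. Its values were not used here, and how it set its threshold and scaled regions to length was not analysed here, so only the presence of region c footprints in all 4 libraries and their excess over region d can be set beside it.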

How the data were processed

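Ribosome-protected fragments of 4 libraries were analysed. The deposited values are whole-number counts per transcript region, which sum to a different total in each library. A region without a line was read as 0. STAR 2.3.1z8, Bowtie2 2.2.2, Trimmomatic 0.32, FastQC 0.11.2, edgeR and bedtools are named, without role or order, per the submitters' processing notes. Genome build, annotation, use of strand, region definitions and the handling of reads with several matches were not given in the sources used here, so fragments shared with other Aqp4 transcripts cannot be told apart.

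Counts were summed over regions per transcript. Transcripts passing filterByExpr (minimum count 10) were compared with edgeR 4.0.16 (R 4.3.3, quasi-likelihood F test, TMM factors, Benjamini-Hochberg over all tested, threshold 0.05). Ratios of region a, c or d to b were tested over the counts of both regions, with library terms, a region term and an interaction with cell type. Standard errors are the size of the log2 fold change over the square root of F. DESeq2 1.42.0 was an alternative. Both tests were run on simulated counts, the ratio test for region a only. How the ratio test behaves at the depth of region c was not tested. Levels are CPM, scaled by the library total. Wilson intervals cover counting error only, since the reads are not known to be independent molecules.

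The member and the lists were chosen with earlier results of these data known. Named besides Aqp4, by rule, are the 2 transcripts above and the 2 below it in region c rank and the 2 nearest in pattern. ENSMUST00000056136 was chosen after its values were seen. 0 of the 23175 IDs matched a gene name, so gene lists, other pathway members and markers were not analysed. Each library is its own pool of 2 brains, so the spread behind the p-values is one between pools. The edgeR tests estimate this spread partly from other transcripts (8.02 degrees of freedom for the Aqp4 total), not from Aqp4 alone.

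Replicate numbers occur in both groups, and no label says that they pair samples.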

Additional observations from a re-analysis of the deposited data

How the results depend on the processing

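The higher Aqp4 total in astrocyte samples passed the test in all 9 alternatives, with log2 fold changes from -2.40 to -2.01. The difference of its region c to region b ratio passed in none of 9 (0.27 to 0.83, adjusted p from 0.295 to 0.949). The region a ratio ranged from -0.74 to 0.17 with 1 library left out, turned to 0.17 and 0.02 in 2 of these, and passed in none. The region d ratio could be fitted with no filter only (-3.12, adjusted p = 0.906), a value that depends on the prior count and is no bound. The rank in region c level was 268 of 11049 with at least 500 region b counts and 69 of 3885 with at least 2000, by the number of transcripts ranked. It was 135 of 6436 with 1 transcript per set of equal region b counts. Without astrocyte library 1 or 2 it was 93 of 6163 or 112 of 6048. Without neuron library 1 or 2 it was 122 of 6131 or 94 of 4829. With 1 library left out, 1.51% to 1.99% of those ranked were at or above Aqp4, against 2.09% with all libraries. The ratio of region c to d was 13.3 to 23.8 with 1 library left out. Division by region length was not run, as no length was at hand.

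Changed transcripts, 3219 in all, numbered 1523 to 8959 with 1 library left out, those higher in neuron (797) 166 to 4193 and those higher in astrocyte samples (2422) 1357 to 4766. With library totals alone 1506 were higher in neuron samples. The cause was not tested. With 1 library left out, the group with a single sample is assumed to have the spread of the other.

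Libraries with the same number deviated from their group means with r = -0.082 over 18819 transcripts, so the numbers were not taken to pair samples. The replicate block gave -2.21 for the Aqp4 total, -0.23 and 0.50 for its region a and c ratios, and 3417 calls.

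Of the region a ratios 95 were called, 11 with DESeq2, 12 with each region's own total and 1 to 207 with 1 library left out. Of the region c ratios 5 of 148 were called where both regions averaged 20 counts or more, Aqp4 not among them. Of the region d ratios 1 was called, and 0 to 7 over the alternatives.

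Depth limits regions c and d, with 128 and 8 Aqp4 counts in all.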
